A study of Mus musculus with 24 samples.

Results

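Cadherins and the catenins bound to them were followed across 11 mouse lung tumour cell lines and their control, alveolar epithelial type II cells. The 8 genes, of 8251 that the array's annotation names by 1 symbol, were Cdh1, Cdh2, Cdh3, Cdh11, Ctnna1, Ctnnb1, Ctnnd1 and Jup, taken as every probe set that the platform annotation names with a member's symbol. They were measured by 11 of the 12422 probe sets on the array that are not Affymetrix controls. Of these 11, 8 passed the filter on low signals, as did 7670 of all probe sets. The probe sets not tested were 1 of the 2 for Cdh3, 1 of the 2 for Ctnna1 and the only one for Cdh11.

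The tumour cells came from lung tumours of 8-month-old mice with the transgenes c-Myc and c-Raf, and were grown for up to 50 passages in medium with fetal calf serum. The control was alveolar epithelial type II cells, which line the air sacs and make surfactant, taken from healthy, non-transgenic animals. The labels give no age for the control animals apart from that of the transgenic mice. The lines were A2B1, A2C12, B3, betaD5, betaD10, cRAF_cMYC, gammaA3, gammaA7, gammaB8, gammaD1 and gammaD12, with 22 arrays in all, and the control had 2 arrays. For gammaB8 the title and the growth protocol agree on the name, while another label field gives gammaA8; the title was used. The promoter driving each transgene, and whether a line is 1 clone, are unstated here. Nothing in the labels ties repeat arrays to separate cultures, or the control arrays to separate animals. A p-value here therefore reflects only how far these samples spread, part of which may be technical. Cells of the lines had been cultured and control cells had not, so transformation and culture cannot be told apart as sources of a difference.

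Classical cadherins are calcium-dependent adhesion molecules that join neighbouring cells at adherens junctions. Their cytoplasmic tails bind p120-catenin (Ctnnd1), which holds the cadherin at the cell surface, and beta-catenin (Ctnnb1) or plakoglobin (Jup), which bind alpha-catenin (Ctnna1) and through it the actin skeleton. Epithelia such as the alveolar lining chiefly use E-cadherin (Cdh1), mesenchymal and neural cells use N-cadherin (Cdh2), and the exchange of the former for the latter is known as the cadherin switch. Beta-catenin that is not held at junctions can enter the nucleus and act with TCF and LEF factors in the Wnt pathway.

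In the lines the N-cadherin signal was higher than in control on every array, and those of E-cadherin, P-cadherin, p120-catenin and plakoglobin were lower. All 22 tumour arrays lay above both control arrays for 18.6% of tested probe sets, and below both for 23.1%. Alpha-catenin and beta-catenin did not pass the test in either direction. The 11 line means were compared with the 2 control arrays in limma on the log2(signal + 32) scale, and a call required a difference of at least 2-fold with a Benjamini-Hochberg adjusted p under 0.05. By this rule 1 of the 8 tested member probe sets was called higher, where 16.5% of all tested probe sets were, and 4 were called lower, where 21.4% were. Over all tested probe sets 37.8% were called in either direction. With arrays centred on their median, only Cdh2 and Jup kept their calls. Cdh2 passed the filter through tumour arrays alone, so a difference there was built into its selection, and these counts are a description. RNA from whole cultures and cell preparations was measured, so fewer cells of a type and less RNA per cell cannot be told apart.

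The controls differed from each other: 952 of the 7670 tested probe sets differed by 2-fold or more from control 1 to control 2. Summed signals of 7 type II markers on the array were 1452 on control 1, 29810 on control 2 and 38.6 to 147 on tumour arrays. Those of 3 club cell markers were 9987, 24270 and 35.2 to 12610, with 2 of the 3 below the array median on all tumour arrays. For 4 ciliated cell markers they were 1305, 3024 and 262 to 552, and for 10 lymphocyte markers 1659, 4933 and 87.2 to 386. Which cells gave the cadherin and catenin signals of the control was not tested. Summed signals of 17 myeloid markers were 54380, 33560 and 661 to 2190. Of these, 15 of 15 tested genes were called lower in the lines (21.4% of all tested probe sets were). But 11 of the 15 had passed the filter through the control arrays alone, so a fall was built into their selection. Each array had been scaled to the same trimmed mean, but the median signal was 93.8 on control 1, 108 on control 2 and 53.2 to 75.5 in the lines. The 3' to 5' ratio of actin, a measure of RNA integrity, was 1.47 and 1.64 in control and 1.03 to 1.32 in the lines. In 6 lines with repeat arrays, 1 array carries no replicate number. Over the 5 of these lines with 3 arrays, the unnumbered arrays deviated together from their line means. In all 6 lines the unnumbered arrays gave a lower signal than every numbered array of their line for Cdh1 and for Ctnnb1, and on 5 of 6 for Jup. They lay above every numbered array on 5 of 6 for the brighter Ctnnd1 probe set. For Cdh2 and the tested Ctnna1 probe set they lay above on 4 of 6 and below on 2. For the other Ctnnd1 probe set they lay above on 4 and below on 1. SDs between repeat arrays include these shifts. Without the unnumbered arrays of these 6 lines the calls of the member probe sets were as with them (Cdh1 -1.37, Ctnnb1 -0.26, Jup -2.13, as log2 differences from control). The single arrays of the other 5 lines, which carry no replicate number either, were kept in that fit. The part of these differences in the results below was not tested.

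**Figure D1:**
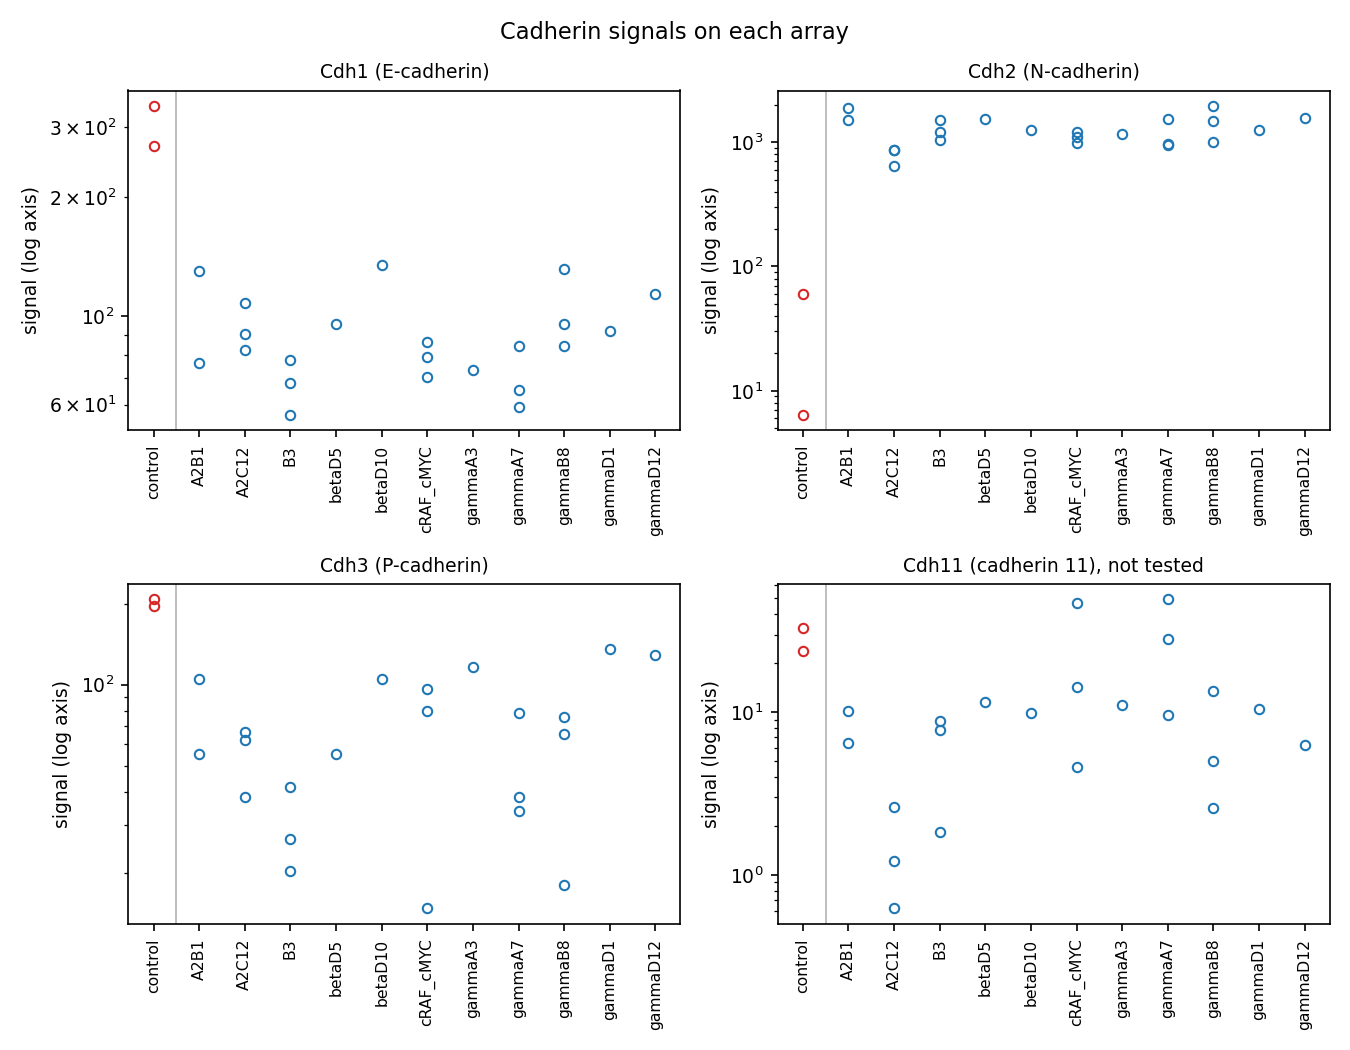
Signals of 4 cadherin probe sets on each array, with 1 panel per gene, the control and the 11 lines along the horizontal axis and the signal (linear units, log axis) on the vertical axis. Each circle is 1 array; Cdh2 lies between 649 and 1956 on tumour arrays against 59.6 and 6.40 on the control arrays, and Cdh1 between 56.5 and 135 against 268 and 339.

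The N-cadherin (Cdh2) signal was 59.6 in control 1 and 6.40 in control 2. On the 22 tumour arrays it ranged from 649 (A2C12, unnumbered array) through a median of 1200 to 1956 (gammaB8, unnumbered array). No tumour array overlapped the control, as was so in this direction for 18.6% of tested probe sets. Both control signals lay below the median of their own array, whereas 22 of 22 tumour signals lay above theirs. The lines averaged 1283 ± 256 (SD, n = 11 lines). With the control set at the median signal of its arrays, in place of its own lower signals, the log2 mean of the lines was at least 12.5-fold higher. This is a bound on the mean and not on each line. The fitted log2 difference of 4.44 (SE 0.28, adjusted p = 3.14e-09, limma) depends on the offset of 32, and it is a description, since the probe set passed the filter through its signal in the lines. All 11 lines lay above both control arrays, as they did for 25.4% of tested probe sets, and each line by itself was called higher, as 6.79% were in all 11. Against control 1 alone the log2 difference was 3.82, and against control 2 alone 5.07.

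Line means of Cdh2 ran from 787 in A2C12 and 1089 in cRAF_cMYC up to 1556 in gammaD12 and 1693 in A2B1, a 2.15-fold range. The gap on the log2 scale between A2C12 and cRAF_cMYC was 0.45, above the SD between repeat arrays of a line (0.31). The other gaps between neighbours in the order were at most 0.18, below that SD. This covers neighbours only: the ends of that order, cRAF_cMYC and A2B1, lay at 10.13 and 10.75 on the log2 scale. The moderated F-test over the 11 lines, which uses all 24 arrays, gave an adjusted p of 0.457 for Cdh2 (limma), where 3.42% of tested probe sets passed.

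E-cadherin (Cdh1), the main epithelial cadherin, gave 268 and 339 on controls 1 and 2. Over the tumour arrays its signal ran from 56.5 (B3, unnumbered array) through a median of 84.1 to 135 (betaD10). The groups did not overlap, yet all 22 tumour signals lay above their own array's median, so the probe set was not at the bottom of the scale in the lines. The log2 difference was -1.44 (SE 0.19, 95% interval -1.83 to -1.04, adjusted p = 7.75e-06, limma), a 2.71-fold lower value on the signal + 32 scale. All 11 lines lay below both control arrays, as they did for 29.7% of tested probe sets, and so did all 22 arrays, as for 23.1%. By itself each line but betaD10 was called lower; betaD10 fell just short of 2-fold (adjusted p = 0.0097). With each array centred on its median the difference was -0.90 (adjusted p = 0.000266), which is also under 2-fold.

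Line means of Cdh1 ran from 67.0 in B3 and 69.0 in gammaA7 to 114 in gammaD12 and 135 in betaD10. No gap between neighbours in this order exceeded the SD between repeat arrays (0.21, log2), and the F-test among lines gave an adjusted p of 0.374 (limma). The fall of Cdh1 was smaller than those of the other listed epithelial markers that were tested. The 9 tested pan-epithelial markers without Cdh1 were all called lower (21.4% over all tested probe sets), with a median log2 difference of -4.04. Of the 10 tested with Cdh1 included, 6 had passed the filter through the control arrays alone, so a fall was built into their selection. Among them Epcam, an epithelial adhesion molecule, gave 109 and 275 on the control arrays and 0.553 to 15.0 on tumour arrays. Summed signals of the pan-epithelial list were 14930 and 9288 on the control arrays and 323 to 4767 on tumour arrays.

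P-cadherin (Cdh3), a classical cadherin of basal epithelial cells, lies directly before Cdh1 on the chromosome in RefSeq's annotation. Its tested probe set gave 195 and 207 on the control arrays. On tumour arrays it ranged from 14.7 (cRAF_cMYC, replicate 1) through a median of 63.8 to 135 (gammaD1). All 22 tumour signals lay below both controls, as for 23.1% of tested probe sets, and 12 lay above their array's median. The log2 difference was -1.16 (SE 0.32, 95% interval -1.84 to -0.48, adjusted p = 0.00491, limma). Only 7 of the 11 lines were called lower by themselves, where 17.7% (A2B1) to 22.5% (A2C12) of tested probe sets were. The lines betaD10, gammaA3, gammaD1 and gammaD12, each with 1 array, were not called, with log2 differences of -0.48 to -0.77. The call was lost under quantile normalization (-0.86, adjusted p = 0.0267, under 2-fold) and with arrays centred on their median (-0.63, adjusted p = 0.0942).

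Line means of Cdh3 spread more widely than those of Cdh1, from 29.0 in B3 to 135 in gammaD1, a 4.66-fold range against 2.02-fold. Repeat arrays of 1 line spread as widely as the lines did, with an SD of 0.50 on the log2 scale against 0.49 between lines, and the F-test gave an adjusted p of 0.341 (limma). The probe set of Cdh3 that was not tested gave 68.4 and 46.6 on the control arrays and 7.39 to 51.7 on tumour arrays, so the groups overlapped. In a fit without the filter its log2 difference was -0.61 (adjusted p = 0.0286, limma), the same direction as that of the tested one. B3 was the lowest line and gammaD1 the highest on both.

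Cadherin 11 (Cdh11), a cadherin of mesenchymal cells and bone, stayed below its array's median on every array and was not tested. Its signal was 32.8 and 23.9 on the control arrays. The tumour arrays ranged from 0.624 (A2C12, unnumbered array) through a median of 9.22 to 49.3 (gammaA7, replicate 2). The ranges overlapped: 2 tumour arrays exceeded both controls and 19 lay below both. In the fit without the filter its log2 difference was -0.51 (SE 0.16, adjusted p = 0.0166, limma). Of the cadherins that mesenchymal cells use, Cdh2 was thus higher in the lines than in control, and Cdh11 was not.

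The annotation names 13 genes of the wider cadherin list on the array, of which 4 were tested. Of these, 1 was called higher and 3 lower (16.5% and 21.4% over all tested probe sets). The median log2 difference was -1.30 against -0.05 over all tested probe sets. The only called gene of this list that is no member was Cdh5, the cadherin of endothelial junctions. It gave 155 and 455 on the control arrays and 1.08 to 23.7 on tumour arrays (log2 difference -2.95, SE 0.23, adjusted p = 4.05e-08, limma), and it had passed the filter through the control arrays alone. Of 6 tested endothelial markers, Cdh5 among them, 5 were called lower (21.4% over all tested probe sets). Of the 6, 4 had passed the filter through the control arrays alone. The marker not called lower, the TGF-beta co-receptor Eng, was called higher (1.83, adjusted p = 0.00106, limma), from 519 and 876 on the control arrays to between 758 and 3737. The summed list gave 1826 and 3971 on control and 842 to 3899 on tumour arrays, most of the latter from Eng. Cdh16, a kidney-type cadherin, was not tested and gave 14.9 and 130 on the control arrays and 3.12 to 27.6 on tumour arrays. Cdh13, which has no cytoplasmic tail, was not tested either and stayed at or below 32.5 on every array.

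**Figure D2:**
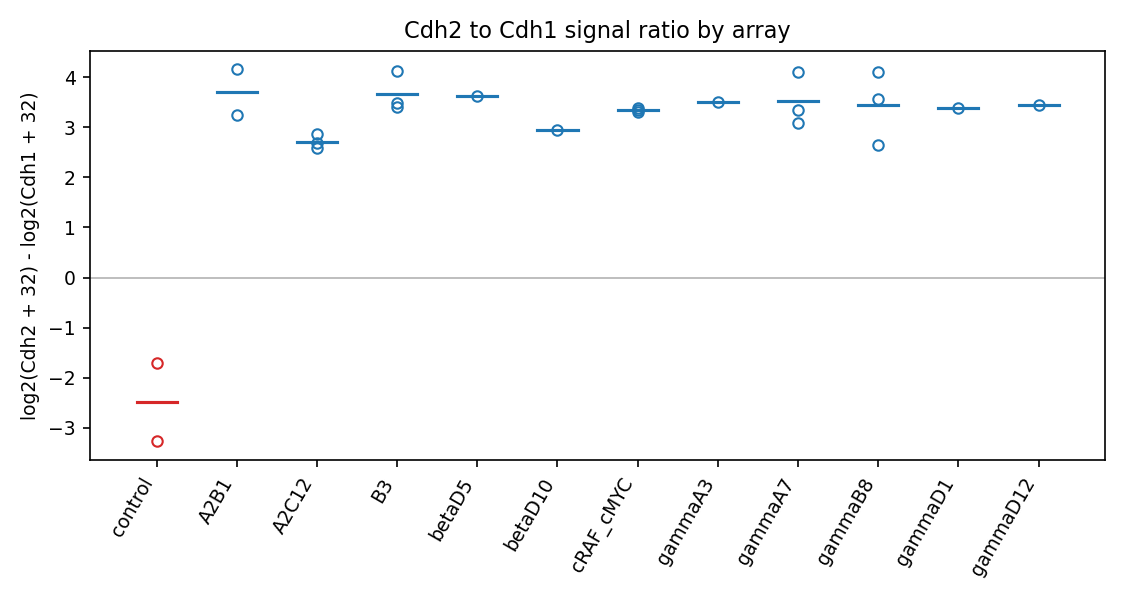
Cdh2 to Cdh1 ratio on each array, as log2(Cdh2 + 32) minus log2(Cdh1 + 32) on the vertical axis, for the control and the 11 lines along the horizontal axis. Circles are arrays and bars are group means; control arrays lie at -1.71 and -3.27, and tumour arrays between 2.58 and 4.16.

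The ratio of Cdh2 to Cdh1 was taken on each array as a difference of log2(signal + 32). Signals of different probe sets are not on a shared scale, so only the change of this ratio between arrays is read. It was -1.71 on control 1 and -3.27 on control 2, with a mean of -2.49. On tumour arrays it lay between 2.58 and 4.16, so every tumour array stood above both controls. The 11 lines averaged 3.39 ± 0.30 (SD, n = 11 lines), which is 5.88 above the control mean. The plain ratio of signals was 0.222 and 0.0189 on controls 1 and 2 and 7.57 to 26.6 on tumour arrays.

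Among lines the ratio was lowest in A2C12 (2.71) and betaD10 (2.95) and highest in A2B1 (3.70) and B3 (3.67). A2C12 was low through its Cdh2, the lowest of all lines, while its Cdh1 of 93.2 lay close to the mean of the lines (92.8 ± 20.6, SD, n = 11). In betaD10 the opposite held: Cdh2 was 1258, near the mean of the lines, and Cdh1 was the highest of all lines. Repeat arrays of a line differed by an SD of 0.46 in this ratio, more than the SD of 0.30 between line means. The 3 arrays of A2C12 gave 2.58, 2.69 and 2.86, and those of cRAF_cMYC 3.31, 3.35 and 3.38. The arrays of gammaB8 were further apart, at 4.10, 2.65 and 3.56. In A2B1, B3, gammaA7 and gammaB8 the array with no replicate number gave the highest ratio of the line, and in A2C12 and cRAF_cMYC the lowest. The size of the shift depended on the offset, since Cdh2 was near the floor in control: it was 7.62 with an offset of 1 and 4.45 with an offset of 100.

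**Figure D3:**
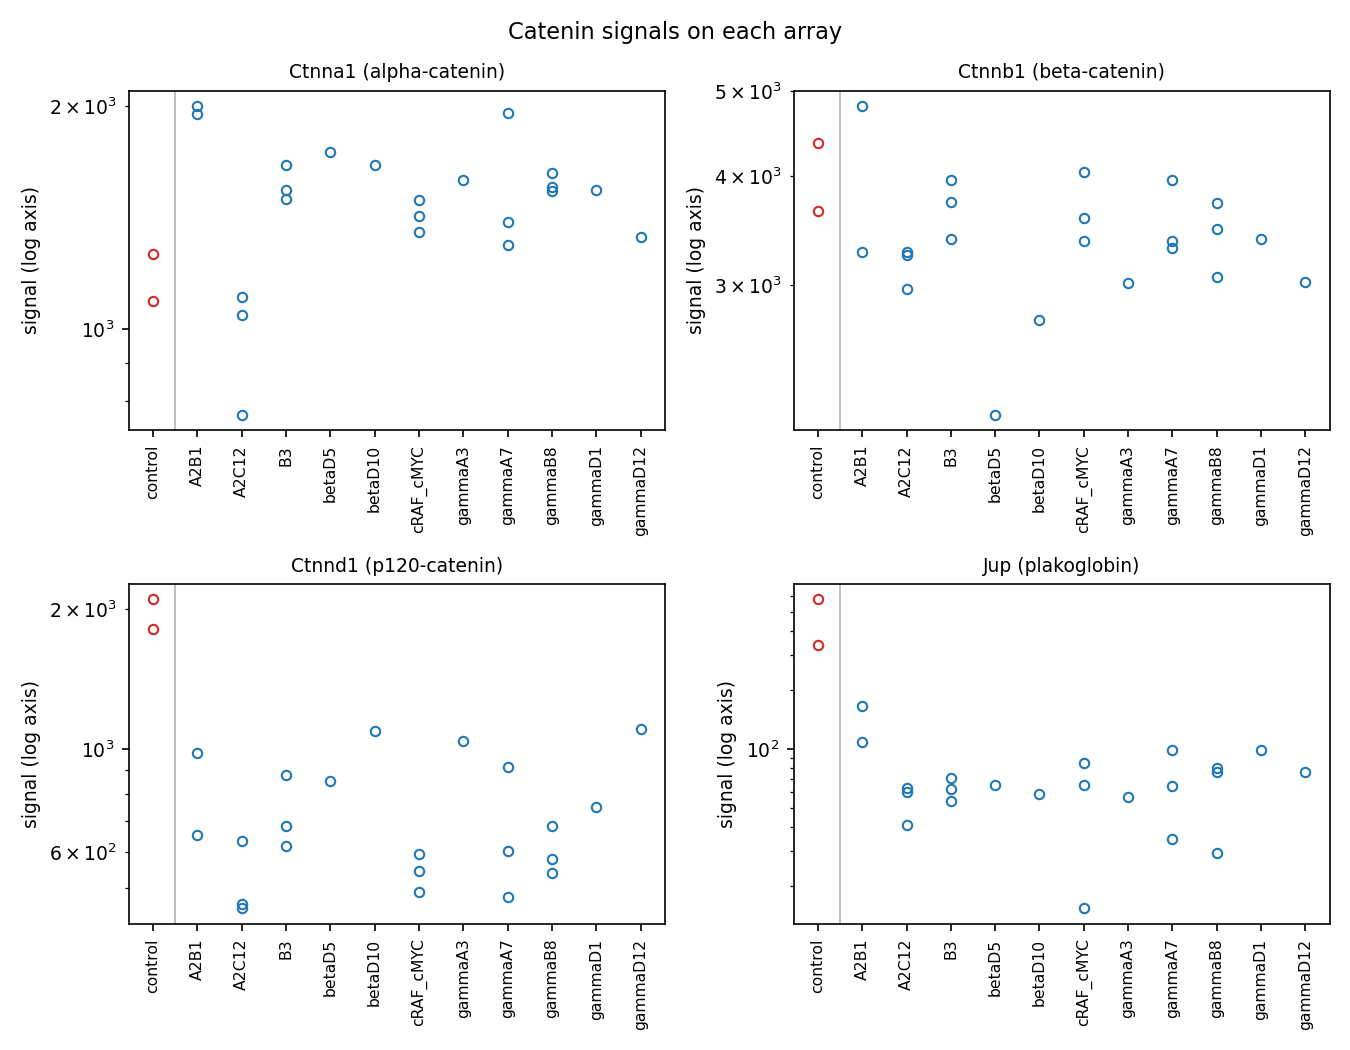
Signals of 4 catenin probe sets on each array, with 1 panel per gene, the control and the 11 lines along the horizontal axis and the signal (linear units, log axis) on the vertical axis. Each circle is 1 array; Ctnnd1 (453 to 1103 against 1810 and 2100) and Jup (15.3 to 166 against 339 and 579) do not overlap the control, whereas Ctnna1 and Ctnnb1 do.

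Plakoglobin (Jup), which serves both adherens junctions and desmosomes, gave 339 and 579 on the control arrays. The lines gave 15.3 (cRAF_cMYC, unnumbered array) through a median of 65.2 to 166 (A2B1, replicate 1). The groups did not overlap, as was so in this direction for 23.1% of tested probe sets. Of the 22 tumour signals, 16 lay above their array's median. The log2 difference was -2.24 (SE 0.24, 95% interval -2.75 to -1.73, adjusted p = 1.16e-06, limma), the largest fall among the members. Each of the 11 lines was called lower by itself, as 11.7% of tested probe sets were. Line means ran from 49.3 in cRAF_cMYC to 135 in A2B1, with no gap between neighbours above the SD of repeat arrays (0.44, log2), and the F-test gave an adjusted p of 0.639 (limma).

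The p120-catenin gene (Ctnnd1) had 2 tested probe sets. The first gave 1810 and 2100 on the control arrays and ranged on tumour arrays from 453 (A2C12, replicate 2) through a median of 643 to 1103 (gammaD12). Its groups did not overlap, as was so in this direction for 23.1% of tested probe sets. Its log2 difference was -1.32 (SE 0.26, 95% interval -1.88 to -0.77, adjusted p = 0.000391, limma). It was called lower in 8 of 11 lines by themselves, where 17.7% (A2B1) to 22.5% (A2C12) of tested probe sets were. The others, betaD10, gammaA3 and gammaD12, had differences of -0.80 to -0.89. Each of these has 1 array, which carries no replicate number. In 5 of 6 lines with repeat arrays the unnumbered array gave the highest signal for this probe set. Whether this bears on the calls was not tested. With arrays centred on their median the difference was -0.79 (adjusted p = 0.0147), under 2-fold.

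The other Ctnnd1 probe set, whose suffix marks probes that can match more than 1 transcript, gave 465 and 516 on the control arrays. On tumour arrays it ranged from 170 (gammaA7, replicate 2) through a median of 314 to 446 (gammaD12). All 22 again lay below both controls, as for 23.1% of tested probe sets. Its log2 difference of -0.58 (SE 0.21, adjusted p = 0.0229, limma) was under 2-fold, so it was not called, and with arrays centred on their median it was -0.05. With either control array left out its adjusted p was 0.0645 or 0.151. The probe sets ordered the lines alike: Pearson's r over the 11 line means was 0.912 and Spearman's rho 0.927, and r was 0.866 without gammaD12 and betaD10. A2C12 and cRAF_cMYC were the lowest lines on both, and gammaD12 the highest. Their F-tests among lines gave adjusted p-values of 0.164 and 0.285 (limma).

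Sequence upstream of the start was held for 3 of the 8 members in RefSeq's promoter table (GRCm38.p6): Ctnnb1, Ctnnd1 and Jup. It lists 2 windows for Ctnnb1 and 2 for Ctnnd1, of which only the most upstream was used. The 250 bases before the annotated start are shown for Ctnnd1 (chr2:84658978-84659227, minus strand) and Jup (chr11:100397791-100398040, minus strand), the member catenins called lower, 5′ to 3′. Capitals mark matches to CANNTG, the E-box core, of which CACCTG is the form that Snail and Zeb repressors bind.
Ctnnd1: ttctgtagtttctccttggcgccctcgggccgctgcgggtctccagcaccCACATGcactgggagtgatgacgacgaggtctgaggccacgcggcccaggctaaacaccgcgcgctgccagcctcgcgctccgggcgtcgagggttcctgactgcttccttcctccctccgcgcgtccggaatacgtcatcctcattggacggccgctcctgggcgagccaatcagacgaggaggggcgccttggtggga
Jup: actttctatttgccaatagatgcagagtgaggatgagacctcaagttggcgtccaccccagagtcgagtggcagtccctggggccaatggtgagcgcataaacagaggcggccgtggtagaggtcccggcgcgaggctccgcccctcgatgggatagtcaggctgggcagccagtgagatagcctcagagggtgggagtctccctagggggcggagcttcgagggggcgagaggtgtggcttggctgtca
Both strands were searched. CANNTG occurs once in the Ctnnd1 window, as CACATG, and in neither of the others, while 66.2% of 32851 windows of this length hold it. CACCTG (17.2% of windows) and CTTTGAT, a TCF and LEF site (3.21%), are in none of the 3 windows searched.

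Alpha-catenin (Ctnna1), which links the cadherin complex to actin, gave 1262 and 1092 on the control arrays. Tumour arrays gave 766 (A2C12, unnumbered array) through a median of 1538 to 2001 (A2B1, unnumbered array). The groups overlapped through A2C12, whose line mean of 960 lay below both controls, while the other 10 lines lay above both. The log2 difference was 0.36 (SE 0.20, 95% interval -0.06 to 0.77, adjusted p = 0.119, limma). No line was called by itself. With arrays centred on their median the difference was 0.89 (adjusted p = 0.000856), still under 2-fold. Ctnna1 had the lowest F-test p among the members (0.00986), but it did not pass after adjustment (0.111, limma). Over the 5 lines with 3 arrays its adjusted p was 0.0504, and 0.0471, which passes, with the replicate number as a block. The 3 arrays of A2C12 gave 766, 1104 and 1045, all lower than any array of the other lines.

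Beta-catenin (Ctnnb1), the cadherin partner that is also the transducer of Wnt signals, gave 4361 and 3650 on the control arrays. On tumour arrays it ranged from 2136 (betaD5) through a median of 3371 to 4805 (A2B1, replicate 1). The ranges overlapped, with 8 line means below both controls and none above both. The log2 difference was -0.31 (SE 0.19, 95% interval -0.72 to 0.09, adjusted p = 0.163, limma), and no line was called. The direction depended on the scaling: the difference was -0.83 (adjusted p = 0.00224, under 2-fold) under quantile normalization and 0.22 with arrays centred on their median. The F-test among lines gave an adjusted p of 0.337. With the deposited scaling, the 95% intervals of Ctnnb1 and Ctnna1 each exclude a 2-fold difference.

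**Figure D4:**
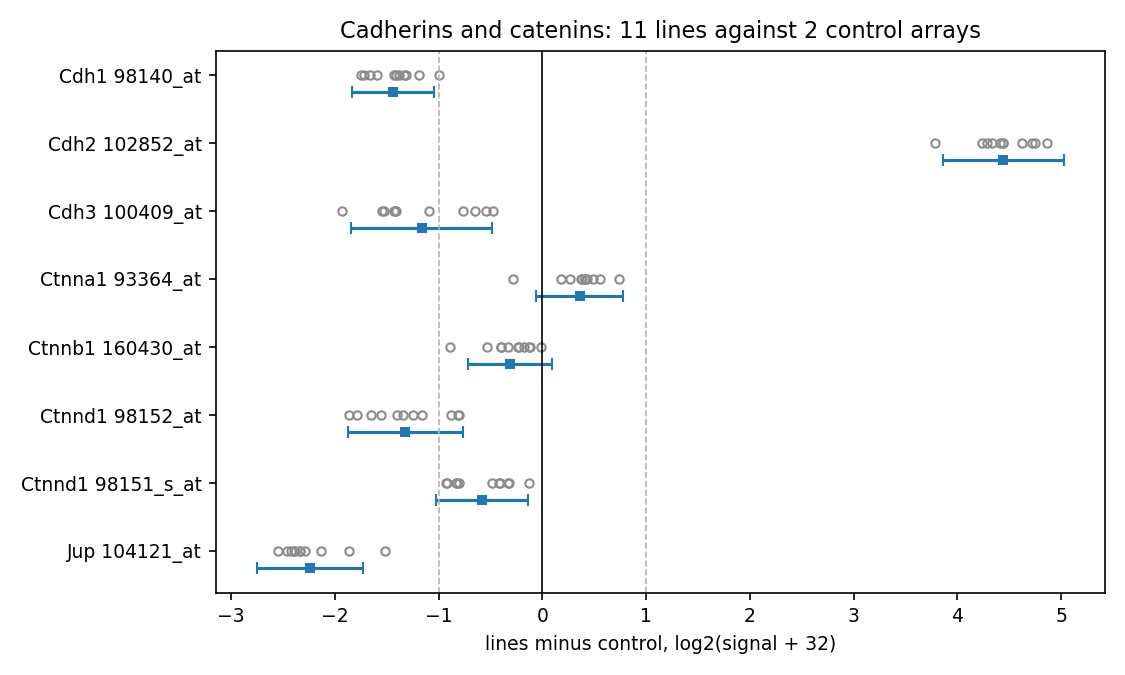
Log2 differences between lines and control for the 8 tested member probe sets, in log2(signal + 32) on the horizontal axis, with the probe sets on the vertical axis. Squares and bars are the mean difference and its 95% interval over 11 lines against 2 control arrays, circles are the line means against the control mean, and dashed lines mark 2-fold; Cdh2 lies at 4.44, Jup at -2.24 and Ctnnb1 at -0.31.

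Over the 8 tested member probe sets and the 11 lines, 47 contrasts of a line with control were called. The contrasts share both control arrays. Of all tested probe sets, the share called was lowest in A2B1 (31.2%), gammaD12 (34.4%) and betaD10 (34.8%). It was 37.5% in gammaA7, 37.6% in gammaB8, 37.7% in gammaD1, 38.1% in cRAF_cMYC, 38.3% in gammaA3 and 38.6% in betaD5, and highest in B3 (39.8%) and A2C12 (40.6%). None of the members passed the F-test among the 11 lines; with the replicate number as a block, over 5 of them, Ctnna1 did (adjusted p = 0.0471, limma). Relations between members across the 11 line means are given as a description, over 28 pairs, with lines of 1 to 3 arrays each. After the Ctnnd1 probe sets, the pair with the highest r was Cdh2 and Ctnna1 (0.777, rho 0.591), but r was 0.048 without A2C12 and A2B1, so it rests on those lines. Cdh3 and Ctnnd1 gave 0.669 (rho 0.618), and 0.697 without gammaD1 and gammaD12. For Cdh1 and Cdh2 r was 0.364 (rho 0.645), so lines with more Cdh2 were not those with less Cdh1.

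The genes whose levels over the 11 lines and 2 control arrays followed Cdh1 most closely, out of 5824 compared, were Ptprr (r = 0.984), Mfng (0.981), Dhx15 (0.981), Lat (0.980) and P2rx1 (0.978). For Cdh2 they were Rpl6 (0.984), Degs1 (0.984), Rplp0 (0.983), Bdnf (0.982) and Rbmxl1 (0.982). The 13 values hold both control arrays, so r takes in the contrast of lines with control as well as differences among lines. It is a description with no test.

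Of the 8 catenins and relatives on the array, 6 were tested and 4 were called lower, none higher (21.4% and 16.5% over all tested probe sets). The median log2 difference was -1.22. Beside Ctnnd1 and Jup the genes called lower were Ctnnd2, the neural relative of p120-catenin, and Ctnnbip1, an inhibitor of the binding of beta-catenin to TCF factors. Ctnnd2 gave 110 and 207 on the control arrays and 3.22 to 59.6 on tumour arrays (-1.83, adjusted p = 2.9e-05, limma); it passed the filter through the control arrays alone. Ctnnbip1 had a difference of -1.11 (adjusted p = 3.97e-05), which was no longer 2-fold without control 2 (-0.90), under quantile normalization (-0.89) or with arrays centred on their median (-0.58). With arrays centred on their median, 2 of the 6 were called lower. Ctnnal1, a relative of alpha-catenin, was not tested, and its 16.7 and 46.2 in control spanned all but 1 of the line means.

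Among 19 tested partners at the adherens junction, 1 was called higher and 3 lower, beside 16.5% and 21.4% of all tested probe sets, so neither count stood above the background; the median log2 difference was 0.33. Vinculin (Vcl), which is recruited to alpha-catenin under tension, was the one that rose, from 1035 and 765 on the control arrays to between 2276 and 6652 on tumour arrays (2.29, SE 0.23, adjusted p = 6.12e-07, limma). The largest fall was in Ptprf, a receptor tyrosine phosphatase found at junctions, from 428 and 1087 to between 4.18 and 213 (-2.98, SE 0.45, adjusted p = 3.22e-05). The actin regulators Vasp (-1.80) and Iqgap1 (-1.29) also fell, all 11 lines below both controls for each, as for 29.7% of tested probe sets. Iqgap1 was under 2-fold with arrays centred on their median (-0.76). The count of rises rested on scaling and on the control kept. It was 3 under quantile normalization, 7 with arrays centred on their median, 4 without control 1 and 2 without control 2, and Vcl was called in each.

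Desmosomes, the other cadherin-based junctions, are joined to keratin filaments through plakoglobin and desmoplakin. Of 10 desmosome genes on the array, 6 were tested and 2 were called, both lower (21.4% of all tested probe sets were), with a median log2 difference of -0.67. Desmoplakin (Dsp) fell from 620 and 731 on the control arrays to between 3.21 and 29.7 (-3.88, SE 0.15, adjusted p = 8.83e-12, limma). The desmosomal cadherin Dsg2 fell from 104 and 154 to between 5.21 and 34.6 (-1.70, SE 0.18, adjusted p = 1.04e-06). These 2 passed the filter through the control arrays alone. Plakophilin 1 (Pkp1) gave 18.4 and 54.9 on the control arrays and 5.73 to 87.8 on tumour arrays, with a difference of -0.34 (adjusted p = 0.353) whose sign changed with the scaling and with the control kept. Plakophilin 2 (Pkp2) gave 282 on control 1, a lower signal on control 2 and 4.13 to 400.4 on tumour arrays (-0.91, adjusted p = 0.297). Both passed the F-test among lines (adjusted p = 0.0227 for Pkp1 and 0.0199 for Pkp2, limma). Pkp4, a plakophilin relative, was not called (0.65, adjusted p = 0.0524), but was called higher without control 2 (1.29) and with arrays centred on their median (1.19).

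**Figure D5:**
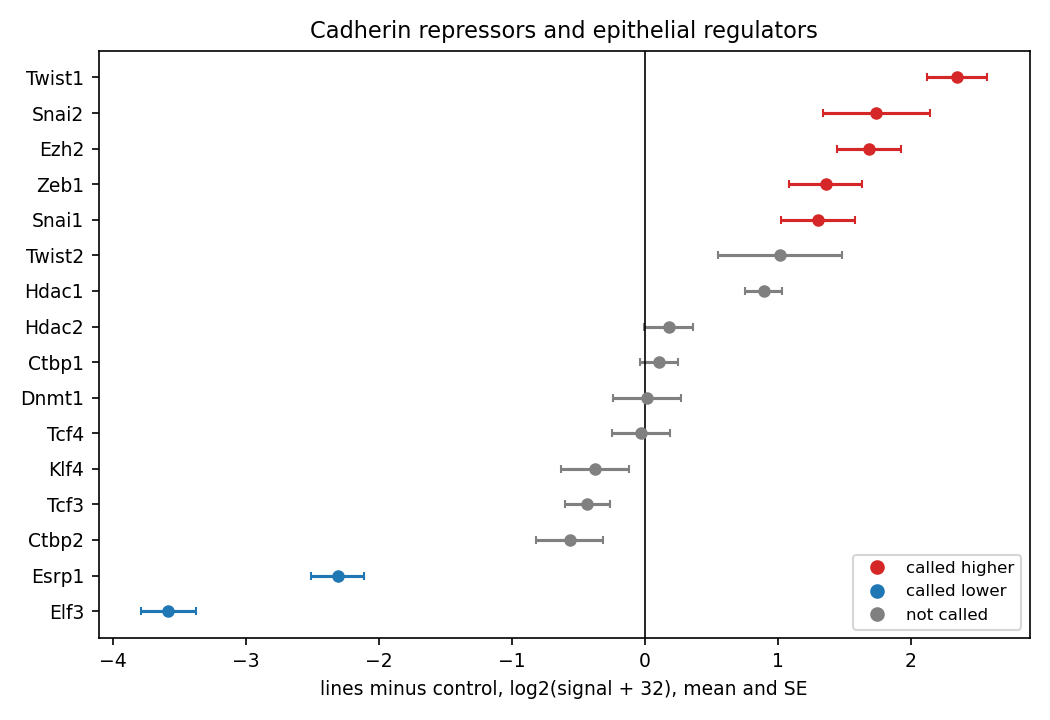
Log2 differences between lines and control for the 16 tested cadherin repressors and epithelial regulators, in log2(signal + 32) on the horizontal axis, with genes on the vertical axis. Points are means and bars are SE over 11 lines against 2 control arrays, red for the 5 called higher, blue for the 2 called lower and grey for the rest; Twist1 lies at 2.35 and Elf3 at -3.58.

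Snail, Zeb and Twist factors are known as repressors of the E-cadherin gene, and Elf3 and the splicing factor Esrp1 are kept on in epithelia. Of 16 tested genes of this list 5 were called higher and 2 lower (16.5% and 21.4% over all tested probe sets), with a median log2 difference of 0.14. Twist1 rose most, from 21.8 and 5.96 on the control arrays to between 137 and 279 (2.35, SE 0.23, adjusted p = 4.23e-07, limma). Snai2 rose from 163 and 131 to between 288 and 1525 (1.74, SE 0.40, adjusted p = 0.00134), and it passed the F-test among lines (adjusted p = 0.0281). Zeb1 rose from 143 and 128 to between 173 and 702 (1.36, SE 0.27, adjusted p = 0.000469). Snai1 gave 91.7 and 20.3 on the control arrays and 105 to 308 on tumour arrays (1.30, SE 0.28, adjusted p = 0.000792). It depended on control 2: without that array the difference was 0.68 (adjusted p = 0.0772), and without control 1 it was 1.92. Twist1 and Snai1 passed the filter through tumour arrays alone.

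The remaining call upward was Ezh2, a histone methyltransferase of Polycomb complexes (1.69, adjusted p = 2.02e-05). Elf3 fell from 442 and 744 on the control arrays to between 10.7 and 42.8 (-3.58, SE 0.21, adjusted p = 1.33e-09, limma). Esrp1 fell from 94.7 and 237 to between 1.07 and 17.0 (-2.31, adjusted p = 1.3e-07); both had passed the filter through the control arrays alone. The list had 7 calls upward under quantile normalization and with arrays centred on their median, and 6 without control 1. Without control 2 there were 5 again, with Twist2 (1.77) in place of Snai1. Of 9 tested fibroblast markers, 3 were called higher and 2 lower (16.5% and 21.4% over all tested probe sets). The summed list gave 5521 and 2957 on the control arrays and 7059 to 30860 on tumour arrays. Of 5 tested smooth muscle and myofibroblast markers, 2 were called higher and 1 lower (16.5% and 21.4% over all). Their summed list gave 2867 and 1913 on control and 2023 to 11300 on tumour arrays. Of 4 tested mesothelial markers none was called (37.8% over all). That summed list gave 873 and 1302 on control and 104 to 9450 on tumour arrays.

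Cadherins are shed from the surface by metalloproteases and then cut by the gamma-secretase complex. Of 10 tested genes of this machinery none was called higher and 4 were called lower (16.5% and 21.4% over all), with a median log2 difference of -0.23. Psen2, a catalytic subunit of gamma-secretase, fell from 1076 and 209 on the control arrays to between 59.5 and 189 (-2.06, SE 0.35, adjusted p = 9.89e-05, limma). It rested on control 1: the difference was -0.96 without that array and -3.16 without control 2. Its partner Psenen (-1.28, adjusted p = 2.01e-06) and the proprotein convertase Furin (-1.06, adjusted p = 3.78e-05) also fell. With arrays centred on their median both were under 2-fold (-0.75 and -0.53), as was Furin without control 2 (-0.96). The matrix metalloprotease Mmp9 gave 4.03 and 248 on the control arrays, and its difference of -1.23 (adjusted p = 0.0348) turned to 0.25 without control 2; it was not called under quantile normalization (adjusted p = 0.0509) or with arrays centred on their median (0.192). The count of falls was 3 without control 1, 2 without control 2 and 1 with arrays centred on their median. A gene was called higher without control 1 (Mmp3, 2.29, against 0.41 with both controls and -1.46 without control 2). Adam15 was called higher under quantile normalization (1.02) and with arrays centred on their median (1.02). It had passed the filter through tumour arrays alone, so a rise was built into its selection.

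In the pathway that acts through beta-catenin, 1 of 26 tested genes was called higher and 6 lower, beside 16.5% and 21.4% of all tested probe sets, so the count of falls lay near the background; the median log2 difference was -0.50. The Wnt receptor Fzd2 rose from 110 and 9.07 on the control arrays to between 436 and 1126 (3.33, SE 0.32, adjusted p = 4.61e-07, limma). The secreted Wnt antagonist Sfrp2 gave 135 and 185 on the control arrays and 4.65 to 70.0 on tumour arrays (-1.65, SE 0.19, adjusted p = 2.08e-06); it had passed the filter through the control arrays alone, so a fall was built into its selection. The nuclear partner Lef1 fell from 302 and 682 to between 54.2 and 231 (-1.60, adjusted p = 7.32e-05; -1.05 without control 2). Tcf7l2, another such partner (-1.59), the receptors Fzd3 (-1.53) and Fzd4 (-1.11) and the corepressor Tle1 (-1.15) also fell. Fzd4 was under 2-fold without control 1 (-0.97), and Tle1 without control 2 (-0.72) and under quantile normalization (-0.71). With arrays centred on their median Fzd3 (-0.99), Fzd4 (-0.58) and Tle1 (-0.61) were all under 2-fold. Apc, the scaffold of beta-catenin destruction, did not reach 2-fold (0.59, adjusted p = 0.0318), but was called higher under quantile normalization (1.08) and with arrays centred on their median (1.13). The scaling decided the balance here: 3 rises and 6 falls were called under quantile normalization, and 5 and 3 with arrays centred on their median. Without control 1 the calls were 3 and 6.

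Of 11 tested target genes of beta-catenin 4 were called higher and 2 lower (16.5% and 21.4% over all), with a median log2 difference of 0.77. The matricellular protein Ccn4 rose from 151 and 22.8 on the control arrays to between 471 and 2409 (3.81, SE 0.43, adjusted p = 2.13e-06, limma). The other rises were in Birc5, an inhibitor of apoptosis (2.95), the activator protein subunit Fosl1 (2.30) and the hyaluronan receptor Cd44 (1.79). Fosl1 was not called without control 2 (1.19, adjusted p = 0.0526), nor Cd44 without control 1 (adjusted p = 0.0804). Id2, an inhibitor of helix-loop-helix factors, fell from 2536 and 2170 to between 123 and 1579 (-2.02, SE 0.47, adjusted p = 0.00147), and the other fall was Lef1. Cyclin D1 (Ccnd1) gave 540 and 1097 on the control arrays and 515 to 1672 on tumour arrays, a difference of 0.43 (adjusted p = 0.157) that was -0.06 without control 1. Axin2, a widely used readout of the pathway, was not tested. It gave 57.5 and 52.7 on the control arrays and 23.9 to 68.2 on tumour arrays. All 11 of its line means lay below both controls, as for 29.7% of tested probe sets.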

How the data were processed

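Each array measured biotin-labelled RNA of 1 cell line or control preparation on an Affymetrix mouse array. The deposited values are linear intensity signals per probe set, made with GCOS per the submitters' processing notes, and scaled by array (mean after trimming 2% at each end, 250.1 to 250.2). Background correction and the genome build were not given in any source used here. The number of arrays limits the precision.

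Probe sets above their array's median on at least 2 arrays were tested (7670), as log2(signal + 32), in limma 3.58.1 (R 4.3.3). The 11 line means were fitted against 2 control arrays (11 residual degrees of freedom). Another fit gave all 24 arrays 12 group means, for each line's contrast and the F-test over lines. P-values were adjusted over all tested probe sets. The fits were tested on simulated data.

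The members and gene lists were chosen with earlier results of these data known. A gene stands for its brightest tested probe set. The rule named all members, the largest called rise and fall of each list, 18 listed genes where measured, and the 5 genes most like Cdh1 and Cdh2. Ctnnbip1, Vasp, Iqgap1, Ezh2, Esrp1, Psenen, Furin, Mmp9, Mmp3, Adam15, Pkp4, Twist2, Tcf7l2, Fzd3, Fzd4, Tle1, Birc5, Fosl1, Cd44, Pkp2, Eng and Epcam were named after their values were seen. Alternatives covered scaling, offset, filter, variance model, arrays and thresholds.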

Additional observations from a re-analysis of the deposited data

Results flagged for a closer look

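The probe set of Ctnna1 that lay below its array's median everywhere, and so entered no comparison, had 8 of 11 line means above both control arrays. Its signals were 19.5 and 22.6 on the control arrays and 3.10 to 54.7 on tumour arrays, with a log2 difference of 0.21 (adjusted p = 0.437, limma) in the fit without the filter. The tested Ctnna1 probe set had 10 of 11 line means above both, and A2C12 was the lowest line on both.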

How the results depend on the processing

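Cdh2 and Jup were called in the same direction under all 27 alternatives run for them, at 3.38 to 5.89 and -2.72 to -1.68. The other member falls lost their calls with arrays centred on their median: Cdh1 (-0.90), Cdh3 (-0.63) and the brighter Ctnnd1 probe set (-0.79). The counts of calls, 1265 higher and 1638 lower, were 2421 and 923 with arrays centred on their median, where the median difference of all probe sets was 0.49 instead of -0.05 and 72.4% of calls were higher instead of 43.6%. They were 1678 and 1373 under quantile normalization (55%, median 0.18). The stricter filter, above the median on at least 50% of arrays, tested fewer probe sets and called 870 lower. Without a fold threshold 4947 were called (2303 higher, 2644 lower), and at 4-fold 847 (279 and 568). Leaving out a line or a control gave 2559 to 3182 calls (1097 to 1419 higher, 1462 to 1763 lower). The Cdh2 to Cdh1 shift of 5.88 was 7.62 with an offset of 1, 4.45 with 100 and 6.58 with a floor of 32; leaving out a line or control gave 5.10 (without control 2) to 6.66 (without control 1). Reversed among the members and the genes that the rule named were Ctnnb1 (0.22, centred), Pkp1 (0.0528 quantile, 0.20 centred, 0.0529 without control 2) and Ccnd1 (-0.0599 without control 1). Pkp1 without control 1 (-0.7324) and Ccnd1 without control 2 (0.9204) kept their direction. Of genes named otherwise, Mmp9 (0.25) and Mmp3 (-1.46) turned without control 2. Among lines 262 probe sets passed the F-test. Leaving out 1 repeat array gave 83 (A2C12 replicate 2) to 788 (A2B1, unnumbered array). Over the 5 lines with 3 arrays, 700 passed, and 1247 with the replicate number as a block, where Ctnna1 passed (adjusted p = 0.0471). Deviations from line means correlated above 0.1 in 10 of 10 pairs of unnumbered arrays of these 5 lines (0.17 to 0.54). Pairs of arrays numbered 1 and 2 did so in 6 and 8 of 10 (0.06 to 0.67 and 0.06 to 0.70). For both numbers the highest was the pair of cRAF_cMYC and gammaA7. The numbers as a whole were not taken as pairing. The 47 calls of single lines were 36 to 50; the alternatives for single lines and for lists were chosen after seeing the data. The array holds no other probe set of Cdh1 or Cdh2, so that alternative was not run. Where not stated, the cause was not tested.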
